A study of Arabidopsis thaliana with 33 samples.

Results

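The comparison set the late meristem of the Arabidopsis thaliana root, meristematic sections 5 and 6 counted from the tip, against the early meristem, sections 2 and 3. It used 8 of the 33 arrays of the series, 4 on each side, from 2 single roots that had each been cut across their length. The sections were chosen by their labels alone, without reference to any measured value. Per the labels, both roots came from seedlings of 7 days grown on standard media, and each section was 1 of 6 slices of the meristematic zone. The labels name no ecotype, mutation or treatment for the sections, and position is the only difference between early and late that they give. Section 1, which holds the quiescent centre, section 4 and the first elongation section of the same roots are described beside the comparison. So are 8 cell populations sorted from reporter lines, with 1 array each.

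In the root meristem, cells arise around the quiescent centre, divide repeatedly as they are displaced from the tip, and then leave the division cycle. Histone genes are transcribed mainly while DNA is copied, and mitotic kinases and checkpoint proteins act around chromosome separation. As root cells stop dividing they begin to lengthen, which needs loosening of the wall by expansins and by xyloglucan endotransglucosylases (XTH enzymes, which cut and rejoin the xyloglucan between cellulose fibres). In the outer layer, cells that will form root hairs take up their fate before the hair grows.

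Each root is 1 plant and served as 1 replicate (n = 2 roots). The log2 intensities of the 2 sections on a side were averaged in each root. All differences are late minus early on the log2 scale, with the standard error (SE) from limma's fit, and p-values are Benjamini-Hochberg adjusted over all 22746 probe sets. The number of arrays limits the precision. In bulk sections, a larger share of cells with a transcript and more transcript per cell cannot be told apart.

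Of the 22746 probe sets, 4 were called higher in the late meristem at an adjusted p under 0.05 (0.0176%) and 0 were called lower in limma's test, where 3632 had an unadjusted p under 0.05. Section 1 entered this fit through the estimate of spread, and the 2 roots differed there. Only root 1 has an array of a separate columella section, so section 1 may not hold the same tissue in both roots. With section 1 left out, 520 probe sets were called higher (2.29%) and 1863 lower (8.19%). That fit is among the leave-one-out settings and was given this place after its result was known, so its p-values are printed as a second reading of the same arrays. It had 2 residual degrees of freedom beside 9.60 for the prior, which is limma's estimate of spread shared over all probe sets. The spread of each probe set thus came mostly from that prior and less from its own values in the 2 roots. A further reading, with no test, is whether all 4 late arrays lay above or below all 4 early arrays. They lay above for 4212 probe sets (18.5%) and below for 2955 (13.0%). After quantile normalization, the shares were 9.47% (2155 probe sets) and 11.5% (2612 probe sets).

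The arrays themselves differed in spread. In root 2 the SD of the log2 intensities over all probe sets was 1.45 and 1.31 in the early sections and 0.891 and 0.835 in the late ones. In root 1 it was 1.04 and 1.01 early and 1.00 and 0.909 late. Section 1 had an SD of 0.634 in root 1 and 1.29 in root 2. Probe sets brighter than the median had a median difference of -0.27 and dimmer ones a median of 0.28. Over all probe sets the median was 0.16, and it was 0.04 in root 1 and 0.25 in root 2. Quantile normalization brought it to 0.02 and scale normalization (equal medians and median absolute deviations) to 0.01. The part of this spread in each result below was not tested. Where either normalization moved a printed difference of at least 0.5 in size by over 1.5 times, or turned the sign of a printed difference, the normalized value is given beside it. The rank correlation between the roots, taken across probe sets, was 0.905 and 0.920 in the early sections and 0.832 and 0.864 in the late ones; probe sets are not independent replicates.

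**Figure D1:**
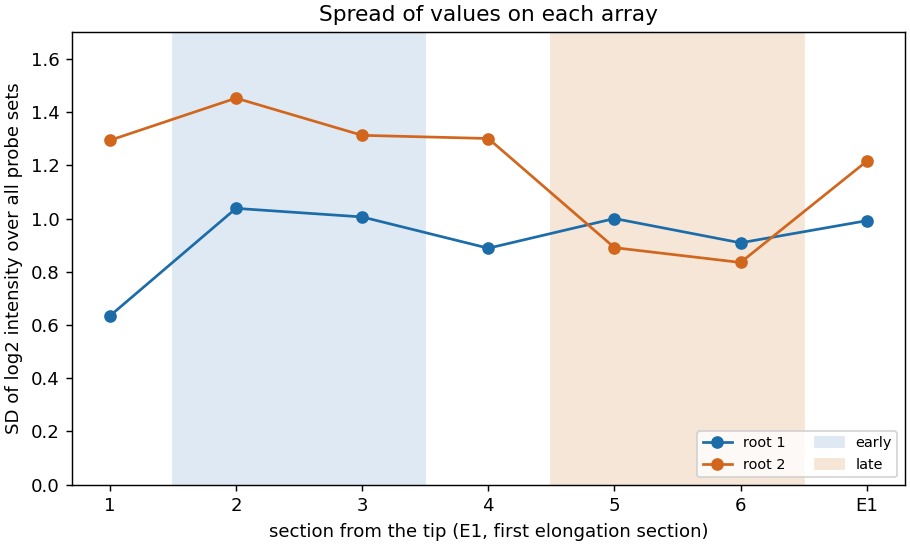
Standard deviation of the log2 intensity over all 22746 probe sets (vertical axis) for each section from the tip (horizontal axis), 1 point per array and 1 line per root. Root 2 drops from 1.45 and 1.31 in the early sections to 0.891 and 0.835 in the late ones, while root 1 stays between 0.909 and 1.04 in these sections.

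The 4 probe sets that were called all rose in the late meristem, each with an adjusted p of 0.0413. AT2G30930, a gene with no symbol in the annotation, had intensities of 0.783 and 0.749 in the early sections of root 1 and 0.57 and 0.637 in those of root 2. Its late intensities were 2.35 and 34.4 in root 1 and 9.38 and 16.3 in root 2. All late arrays lay above all early ones, and section 6 was the higher of the late sections in both roots. The log2 difference was 3.96 ± 0.34 (SE, n = 2 roots). The other 3 are probe sets to which the gene table gave no single gene. Probe set 248844_s_at stood at 0.634 and 0.664 early against 4.55 and 38.97 late in root 1, and at 0.463 and 0.523 against 11.4 and 34.7 in root 2, a difference of 4.85 ± 0.36. The early values of this probe set and of AT2G30930 lay below the median of their arrays, and the arrays have no detection call here, so the early level may be the floor of the measurement. The same holds for other genes below, among them XTH18, UPB1, XTH21 and GT2. It also holds for the late values of some genes that were lower late, among them 3xHMG-box2 and KIWI. These differences are those of the deposited values only. Probe sets 263845_at and 245325_at differed by 2.57 ± 0.21 and 2.55 ± 0.21. Leaving out section 3 or 6 of root 1, or section 2 or 5 of root 2, left 0 calls.

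HTB2 and TUB1 were set against the labels of the sections. HTB2 (AT5G22880) encodes a histone H2B, a core protein of the nucleosome. Its intensities were 3.71 and 4.72 in the early sections of root 1 and 6.94 and 7.16 in those of root 2. Late, they were 2.32 and 1.02 in root 1 and 0.865 and 0.897 in root 2, so every late array lay below every early one. The log2 difference was -2.22 ± 0.42, with an adjusted p of 0.188 and of 0.00196 without section 1. TUB1 (AT1G75780) encodes a beta-tubulin of the microtubules. Its intensities were 0.893 and 1.09 early against 8.80 and 9.51 late in root 1, and 1.02 and 3.36 early against 11.9 and 8.02 late in root 2. All late arrays lay above all early ones, and section 3 of root 2 was the highest early array. The difference was 2.80 ± 0.61, with an adjusted p of 0.195 and of 0.00189 without section 1. Both genes thus separated the early from the late arrays in the labelled direction in both roots, though not section by section. Both were chosen with earlier results of these data known, so this is no independent check of the labels.

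**Figure D2:**
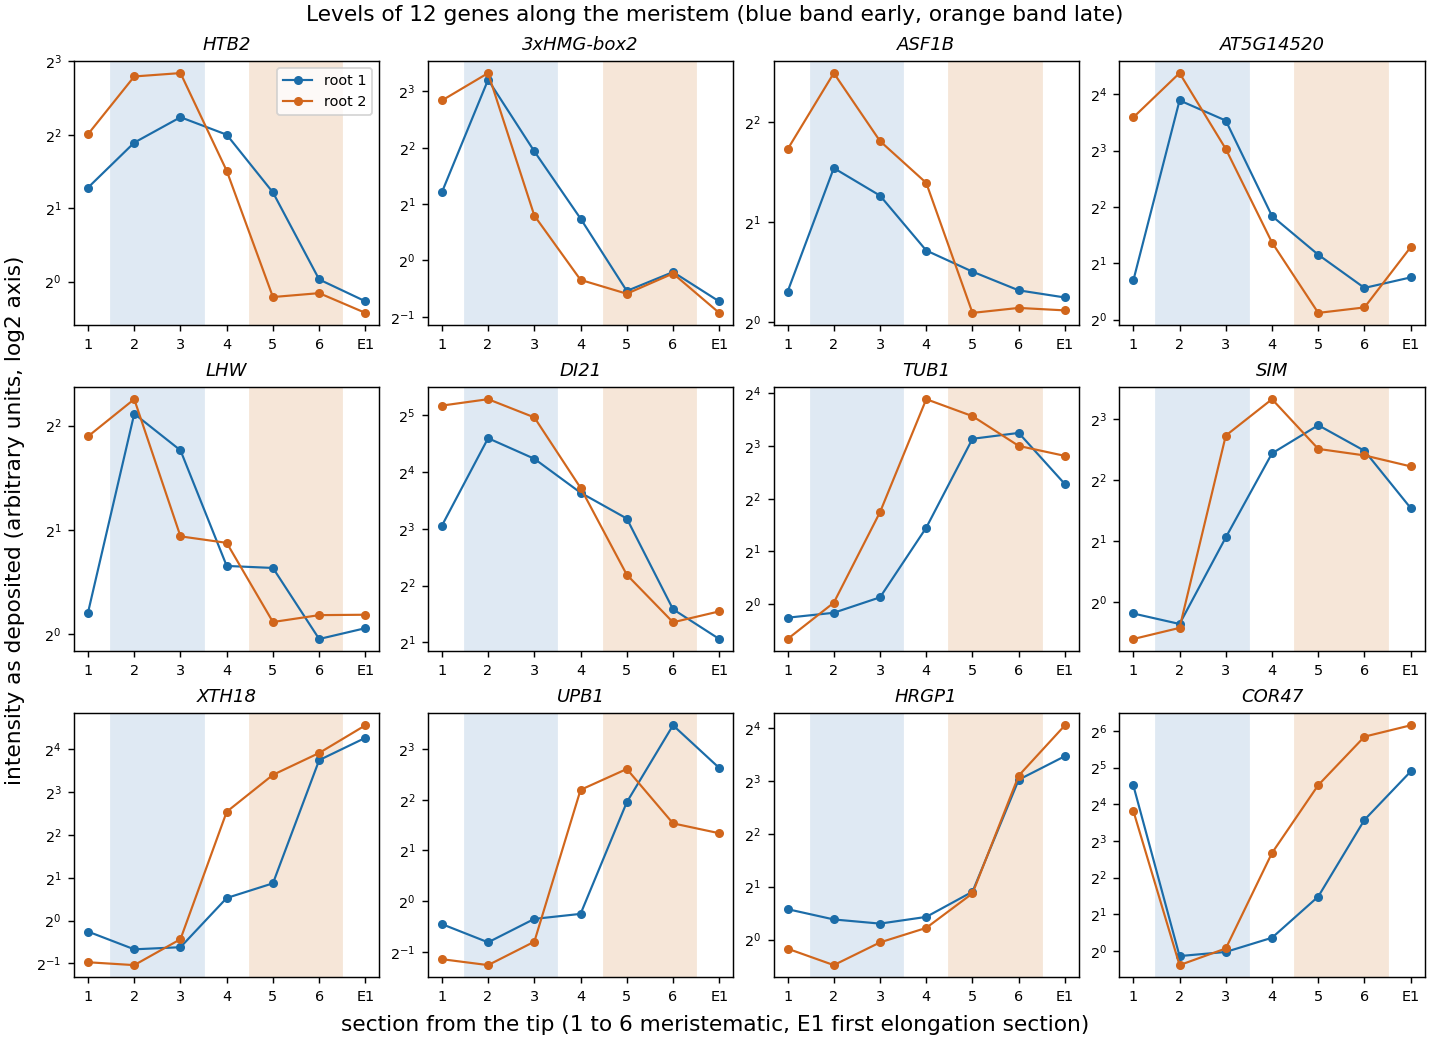
Deposited intensity on a log2 axis (vertical) by section from the tip (horizontal, with E1 the first elongation section) for 12 genes, 1 point per array and 1 line per root, with the early sections shaded blue and the late ones orange. HTB2, 3xHMG-box2, ASF1B, AT5G14520, LHW and DI21 are lower in the late sections and TUB1, SIM, XTH18, UPB1, HRGP1 and COR47 higher, in both roots.

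Genes of chromatin and of the division cycle were mostly lower late. Of 6 core histone genes measured, 5 had all late arrays below all early ones and 1 above, beside 13.0% and 18.5% of all probe sets. Of these genes 0 passed the adjusted test in limma, where 5 had an unadjusted p under 0.05. Without section 1, 4 were called lower, beside 8.19% of all probe sets. The list's median difference was -1.87, -1.28 after quantile normalization and -0.57 after scale normalization, beside 0.16, 0.02 and 0.01 over all probe sets. HTB1 (AT1G07790) had 7.60 and 4.99 early against 2.53 and 1.77 late in root 1, and 10.96 and 9.36 against 1.59 and 1.40 in root 2. Its difference was -2.15 ± 0.44 (-1.27 after scale normalization), larger in root 2 (-2.77) than in root 1 (-1.54). HTB4 (AT5G59910) differed by -2.11 ± 0.71 and HTB11 (AT3G46030) by -1.64 ± 0.64. After quantile normalization these were -1.53 and -1.02, and after scale normalization -0.53 and -0.47, so most of the size of both depended on the scaling. Both had a larger difference in root 2, -3.47 and -2.55, than in root 1, -0.74 and -0.72. H2B genes are close copies of each other, so their probe sets may share signal. HTR12, the centromeric histone H3, differed by -0.54. MGH3, a histone H3 of male germ cells, was the exception at 0.23, and at 0.01 after quantile normalization.

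The mitotic apparatus list held 12 genes, of which 7 had all late arrays below all early ones and 1 above, beside 13.0% and 18.5% of all probe sets. Without section 1, 5 were called lower and 0 higher, beside 8.19% and 2.29% of all probe sets. The list's median difference was -0.65, -0.72 after quantile and -0.68 after scale normalization. 3xHMG-box2 (AT4G23800) encodes a protein with HMG domains that binds mitotic chromosomes. Its early intensities were 9.24 and 3.83 in root 1 and 10.03 and 1.74 in root 2, against 0.687 and 0.867 late in root 1 and 0.664 and 0.852 late in root 2. Section 2 was higher than section 3 in both roots, and the late values were nearly alike, each below the median of its array. The difference was -2.71 ± 0.57, with an adjusted p of 0.195 and of 0.000431 without section 1. BUB3.1 (AT3G19590), of the spindle checkpoint, had 3.93 and 2.23 early against 1.16 and 1.14 late in root 1, and 6.18 and 1.82 against 0.776 and 0.833 in root 2 (-1.71 ± 0.44). The Aurora kinases phosphorylate histone H3 and other targets in mitosis. AUR1 differed by -1.26 ± 0.36 (-0.82 after scale normalization), AUR2 by -0.96 ± 0.35 and AUR3 by -0.51. ATMAP65-6, of a family that bundles microtubules, went the other way, with 1.30 and 1.16 early against 1.33 and 2.19 late in root 1 and 1.16 and 1.01 against 2.03 and 4.41 in root 2 (0.97 ± 0.33, adjusted p = 0.234).

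Of 7 DNA replication genes, 3 had all late arrays below all early ones (13.0% of all probe sets did) and 0 had them above. Without section 1, 2 were called lower, beside 8.19% of all probe sets. The list's median difference was -0.32, and -0.35 after quantile normalization. ASF1B (AT5G38110), a chaperone that brings histones to newly copied DNA, had 2.91 and 2.40 early against 1.42 and 1.25 late in root 1, and 5.63 and 3.51 against 1.07 and 1.10 in root 2. Its difference was -1.51 ± 0.38 (-0.99 after scale normalization), while its near relative ASF1A (listed as SGA2) differed by -0.16. PRL (AT4G02060), the MCM7 subunit of the helicase that opens DNA for copying, had 2.09 and 2.12 early against 1.33 and 1.15 late in root 1, and 5.18 and 3.87 against 1.18 and 1.61 in root 2 (-1.23 ± 0.46, and -0.75 after quantile and -0.66 after scale normalization). POLA3 differed by -0.93 with no overlap between the sides. POLD3 and ICU2, both for DNA polymerase subunits, differed by -0.07 and -0.03.

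Both measured genes of ribosome assembly were lower late. AT5G14520, the annotated PESCADILLO gene, whose product is a nucleolar factor of the large ribosomal subunit, was high in both early sections of both roots. It stood at 14.9 and 11.6 early against 2.22 and 1.48 late in root 1, and at 20.8 and 8.17 against 1.09 and 1.16 in root 2. Sections 2 and 3 were the highest of the meristem in root 1, and in root 2 section 1 (12.1) lay between them. The difference was -3.20 ± 0.79, with an adjusted p of 0.197 and of 0.000242 without section 1. YAO (AT4G05410), a nucleolar WD-repeat protein, had 3.03 and 2.14 early against 1.06 and 1.02 late in root 1. In root 2 it was at 5.85 in section 2 but at 1.06 in section 3, beside 0.854 and 0.877 late, so that its sides overlapped through section 3 of root 2 (-1.41 ± 0.36).

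Few genes of cell cycle control were measured by a single-gene probe set. SIM (AT5G04470), which is SIAMESE, an inhibitor of cyclin-dependent kinases that turns cells from division to repeated DNA copying, was higher late. It stood at 0.779 and 2.09 early against 7.47 and 5.58 late in root 1. In root 2 it was at 0.745 in section 2 and already at 6.64 in section 3, against 5.70 and 5.30 late, so the sides overlapped in that root. The difference was 1.82 ± 0.37, with an adjusted p of 0.195 and of 0.00278 without section 1. HBT (HOBBIT, a subunit of the anaphase-promoting complex) differed by -0.31 and the kinase gene cdc2cAt by 0.16, which turned to -0.14 after quantile and -0.15 after scale normalization. Neither had separated sides.

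The wall genes were led by the XTH family, in which all 10 measured members had a positive difference in both roots, beside 10622 of all 22746 probe sets. Of the 10, 5 lay above the median level of all probe sets. Probe sets at or below that level had a median difference of 0.28. All late arrays lay above all early ones for 7 members, and for 6 after quantile normalization, beside 18.5% and 9.47% of all probe sets. None passed the adjusted test in limma, and 4 had an unadjusted p under 0.05. Without section 1, 4 were called higher, beside 2.29% of all probe sets. The median difference was 0.59, and 0.53 after quantile normalization. XTH18 (AT4G30280) had 0.628 and 0.650 early against 1.83 and 13.5 late in root 1, and 0.486 and 0.740 against 10.6 and 15.1 in root 2. Root 2 was thus high in both late sections and root 1 mainly in section 6. The difference was 3.68 ± 0.61, with an adjusted p of 0.175 and of 0.000442 without section 1. XTH19 (AT4G30290), from the same family, was higher in section 3 than in section 2 of both roots, with 2.08 and 3.93 early against 14.9 and 12.1 late in root 1 and 1.48 and 4.06 against 7.08 and 8.97 in root 2 (1.97 ± 0.28, and 3.09 after scale normalization). XTH21 (AT2G18800) had 0.722 and 0.674 early against 1.99 and 3.36 late in root 1, and 0.433 and 0.546 against 1.37 and 1.71 in root 2 (1.77 ± 0.26). EXGT-A3, another member of the family, differed by 1.01 ± 0.25 (1.67 after scale normalization), and the remaining 6 by 0.32 to 0.68.

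Other wall proteins were less uniform. HRGP1 (AT3G54590), a hydroxyproline-rich wall glycoprotein, was higher in section 6 than in section 5 of both roots. Its intensities were 1.30 and 1.23 early against 1.87 and 8.14 late in root 1, and 0.715 and 0.963 against 1.83 and 8.59 in root 2. The difference was 1.94 ± 0.25, with an adjusted p of 0.143 and of 0.00104 without section 1. Of 19 expansin genes, 5 had all late arrays above all early ones and 1 below, beside 18.5% and 13.0% of all probe sets, so the list lay near the background. Only 6 of the 19 lay above the median level of all probe sets. Most may thus lie at the floor of the measurement, where a difference could not be seen. None was called in limma's test with or without section 1, where 4 had an unadjusted p under 0.05 with it. The expansin median was 0.26, and 0.11 after quantile normalization. EXLA2 and EXLA1, both expansin-like, differed by 1.37 ± 0.47 and 1.22 ± 0.67 (1.87 after scale normalization for EXLA1). EXPA7, an expansin of root hairs, was at 0.742 and 0.897 late in root 1, beside 0.739 and 0.681 early, and at 1.63 and 2.81 late in root 2, beside 0.649 and 0.715 early. In the first elongation section EXPA7 reached 6.94 in root 1 and 12.2 in root 2. EXPA15 was the separated member that was lower late (-0.81 ± 0.21).

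Among 7 tubulin genes, TUB1 was the only one with all late arrays above all early ones. TUB7 (AT2G29550) was lower late, with 3.20 and 1.90 early against 1.57 and 1.37 late in root 1 and 4.74 and 1.62 against 1.06 and 0.848 in root 2 (-1.15 ± 0.47, and -0.76 after scale normalization). TUB5, TUB6 and TUB9 had opposite signs in the 2 roots. TUB5 was higher late in root 1 by 1.08 and lower late in root 2 by 1.49, and TUA6, an alpha-tubulin, differed by -0.17 and -2.14. Their mean differences moved with the scaling: TUB5 was at -0.20 as deposited and 0.36 after quantile normalization, TUB6 at -0.37 and 0.15, TUB9 at -0.75 and -0.16 (0.16 after scale normalization), and TUA6 at -1.15 and -0.59 (-0.35 after scale normalization). After scale normalization TUB5 was at 0.53 and TUB6 at 0.25. The list median was -0.37 and turned to 0.06 after quantile and 0.16 after scale normalization.

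**Figure D3:**
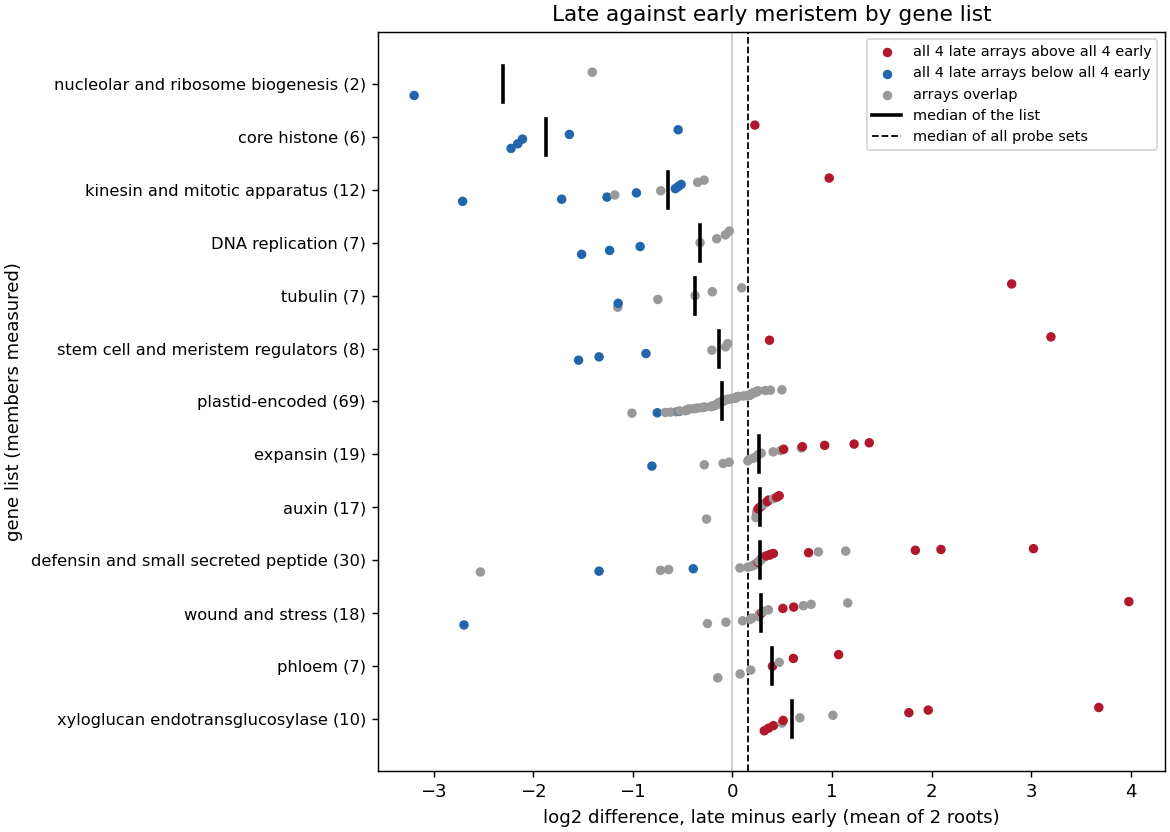
Log2 difference between late and early meristem, mean of 2 roots (horizontal axis), for every measured gene of 13 lists (vertical axis, number of genes in brackets), 1 point per gene, coloured by whether the 4 late and 4 early arrays overlap. Black bars are list medians and the dashed line is the median of all probe sets, 0.16. Core histone genes centre on -1.87 and XTH genes on 0.59.

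Transcription factors and receptors known from the meristem went both ways. LHW (AT2G27230), LONESOME HIGHWAY, a bHLH factor that sets the size of the vascular cell population, had 4.33 and 3.39 early against 1.55 and 0.969 late in root 1, and 4.77 and 1.92 against 1.08 and 1.14 in root 2. Its difference was -1.54 ± 0.47, with an adjusted p of 0.204 and of 0.00270 without section 1. UPB1 (AT2G47270), UPBEAT1, a bHLH factor that represses peroxidase genes where root cells leave division, was at 0.569 and 0.784 early against 3.87 and 11.1 late in root 1. In root 2 it stood at 0.416 and 0.574 early against 6.10 and 2.90 late. All late arrays lay above all early ones, with the highest in section 6 of root 1 and section 5 of root 2. The difference was 3.20 ± 0.73, with an adjusted p of 0.195 and of 0.00389 without section 1. ULT1 (ULTRAPETALA1, a SAND-domain regulator of shoot meristem genes) differed by -0.87 ± 0.30, by -0.21 after quantile normalization and by 0.27 after scale normalization. JKD and BBM, a zinc finger and an AP2 factor of the root stem cell region, differed by -0.07 and -0.05, with JKD at 0.19 after quantile and 0.17 after scale normalization, and CR4 (ACR4, a receptor kinase) by -0.21.

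The class III peroxidases were measured in 7 genes, and their median difference was 0.15, beside 0.16 over all probe sets. Only 2 of the 7 lay above the median level of all probe sets, so most may lie at the floor of the measurement. PRXR1 alone was called without section 1, as lower, beside 8.19% of all probe sets. It stood at 5.67 and 10.6 early against 7.50 and 4.25 late in root 1 and at 27.5 and 29.998 against 6.00 and 5.23 in root 2, so the sides overlapped in root 1 and not in root 2 (-1.41 ± 0.55, and -0.79 after quantile and 0.22 after scale normalization).

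Further genes outside these lists were among the named genes with the lowest p. GT2 (AT1G76890), a trihelix DNA-binding factor, had 0.774 and 0.759 early against 1.36 and 5.16 late in root 1, and 0.621 and 0.655 against 2.40 and 6.18 in root 2 (2.19 ± 0.30, adjusted p = 0.143). LEP (AT5G13910), LEAFY PETIOLE, an AP2 factor, had 0.925 and 0.890 against 1.79 and 4.69 in root 1 and 0.717 and 0.834 against 3.56 and 3.27 in root 2 (1.91 ± 0.30, adjusted p = 0.163). Section 5 of root 1 was the lowest late array for both. KIWI (AT5G09250), a transcriptional coactivator, was lower late, with 2.60 and 1.27 early against 0.821 and 0.848 late in root 1 and 3.34 and 1.11 against 0.837 and 0.852 in root 2 (-1.16 ± 0.21, adjusted p = 0.181). ATLP-1 (AT1G18250) was highest in section 1, at 10.7 in root 1 and 10.3 in root 2. It had 5.98 and 2.54 early against 0.982 and 0.882 late in root 1, and 5.54 and 1.10 against 0.778 and 0.830 in root 2 (-1.84 ± 0.26, adjusted p = 0.143). GPDHp (AT5G40610), annotated as a plastid glycerol-3-phosphate dehydrogenase, had 3.29 and 5.57 against 2.99 and 1.59 in root 1 and 8.13 and 8.37 against 2.14 and 1.67 in root 2 (-1.55 ± 0.33, adjusted p = 0.195, and -0.94 after quantile and -0.69 after scale normalization). GT2, LEP, KIWI, ATLP-1 and GPDHp all passed without section 1.

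The small secreted peptides held members with large differences in opposite directions. Of 30 genes, 9 had all late arrays above all early ones and 2 below, beside 18.5% and 13.0% of all probe sets, with a median difference of 0.28, and 0.02 after quantile normalization. LCR68 (AT2G02130), a defensin also named PDF2.3, differed by 3.02 ± 0.66 (4.60 after scale normalization). In root 1 it went from 0.606 in section 2 to 4.81 in section 3 and to 20.2 and 21.6 late, and in root 2 from 2.32 to 7.61 and to 20.05 and 25.7. PDF2.5 (AT5G63660), another defensin, was lower late, with 13.4 and 16.0 early against 9.63 and 2.48 late in root 1 and 18.6 and 7.27 against 0.945 and 1.15 in root 2. Its sides overlapped through section 5 of root 1 and section 3 of root 2 (-2.53 ± 1.05, adjusted p = 0.305, and 0.00155 without section 1; -1.61 after scale normalization). Among the RALF peptides, which act through receptor kinases of the cell surface and raise the pH outside the cell, RALFL33 differed by 2.09 ± 0.51 and RALFL27 by 1.84 ± 0.42, while RALFL34 differed by -1.34 ± 0.52 (-0.77 after quantile and -0.43 after scale normalization).

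Among 18 wound and stress genes, 4 had all late arrays above all early ones and 1 below, beside 18.5% and 13.0% of all probe sets, so the counts were near the background. Their median difference was 0.28, beside 0.16. COR47 (AT1G20440), a dehydrin, was at 0.905 and 0.979 early against 2.79 and 11.9 late in root 1, and at 0.763 and 1.05 against 23.0 and 57.5 in root 2. Section 1 was high as well, at 22.9 in root 1 and 14.1 in root 2, so the early sections were a low stretch between the tip and the late meristem. The difference was 3.98 ± 0.80, with an adjusted p of 0.195 and of 0.000856 without section 1. DI21 (AT4G15910), annotated as drought-induced, went the other way, with 24.2 and 18.8 early against 9.07 and 2.99 late in root 1 and 39.02 and 31.2 against 4.56 and 2.55 in root 2 (-2.69 ± 0.57, adjusted p = 0.195, and -1.14 after scale normalization). MT1C, a metallothionein, was at 12.7 and 10.9 in section 1 and between 0.512 and 0.952 in all early and late sections.

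Hormone genes showed no large differences, but most were dim. Only 2 of 17 auxin genes, 0 of 7 cytokinin genes and 0 of 4 brassinosteroid and gibberellin genes lay above the median level. Most may thus lie at the floor of the measurement, where a difference could not be seen. All 17 auxin genes lay between -0.26 and 0.47, and all 7 cytokinin genes between 0.10 and 0.41. Their medians of 0.27 and 0.30 compared with 0.16 over all probe sets, and they were 0.13 and 0.03 after quantile normalization. Of the auxin genes 7 had all late arrays above all early ones, and 3 after quantile normalization, beside 18.5% and 9.47% of all probe sets, so these counts depended on the scaling. GH3.17, which conjugates auxin to amino acids, was highest at the tip, with 2.39 and 2.79 in section 1 of roots 1 and 2 and between 0.509 and 1.12 in the early and late sections. None of the auxin or cytokinin genes was called in limma's test with or without section 1, and 0 had an unadjusted p under 0.05. The 69 plastid-encoded genes had a median of -0.10, and 0.24 after quantile normalization, so their direction turned with the scaling. The lists for brassinosteroid and gibberellin (4 genes), cellulose synthesis (3), flavonoid (7), ER body (13), heat shock (6), water channel and vacuole pump (4) and actin (2) genes gave 0 calls in limma's test, with 1 unadjusted p under 0.05. That gene, Hsp70-2, a chaperone, was called lower without section 1 (-1.39 ± 0.53).

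Markers of other cell types in the sections were measured by few genes. The 7 phloem genes summed to an intensity of 6.02 to 6.44 in the early arrays and 6.86 to 10.9 in the late ones, which did not overlap. Singly, 3 of the 7 had all late arrays above all early ones, beside 18.5% of all probe sets. In limma's test 0 were called with or without section 1. Their median difference was 0.40, and 0.21 after quantile normalization. ATC, the largest of them, had 1.08 and 1.09 early against 5.37 and 2.42 late in root 1 but 1.01 and 1.16 against 1.32 and 1.54 in root 2 (1.07 ± 0.33). The 4 epidermis and root hair genes summed to 3.70 to 5.72 early and 4.01 to 8.35 late, and the 4 xylem genes to 2.79 to 3.58 and 3.32 to 3.55. The 2 root cap genes, neither of them confined to the cap, summed to 1.59 to 2.15 early and 1.42 to 1.60 late. GSO1, a receptor kinase and the single endodermis gene, was at 0.628 to 0.890 early and 0.992 to 1.42 late. The part of cell type composition in the differences was not tested.

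**Figure D4:**
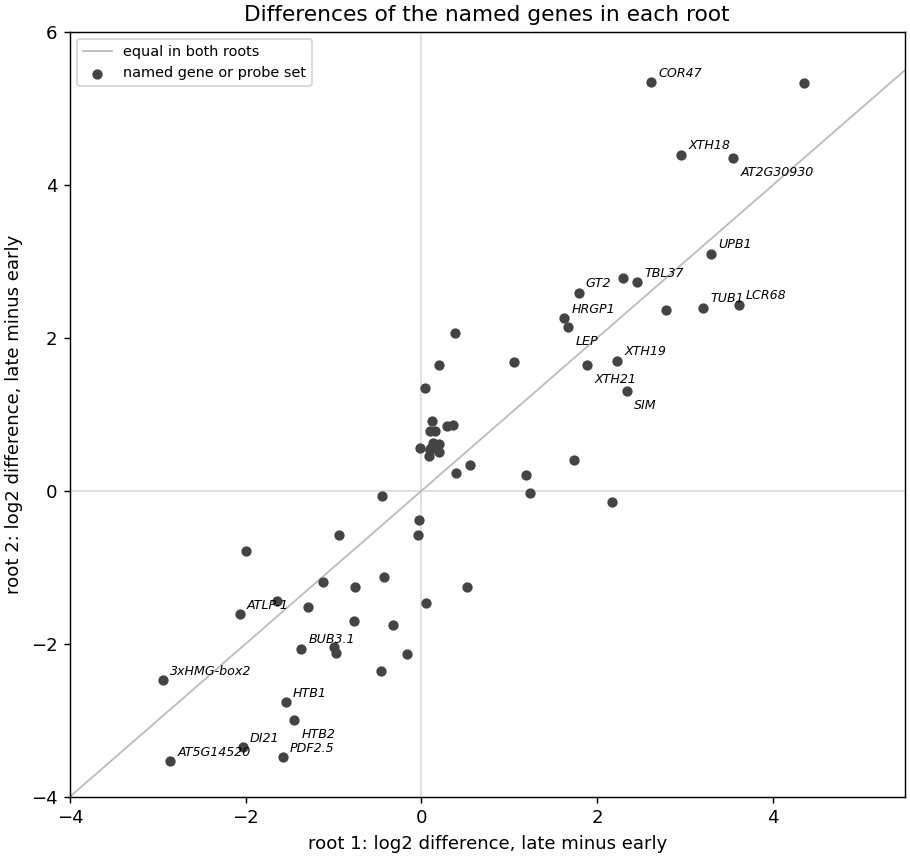
Log2 difference between late and early meristem in root 1 (horizontal axis) and root 2 (vertical axis) for the 65 named genes and probe sets, 1 point each, with the line of equal differences. COR47 differed by 2.62 in root 1 and 5.35 in root 2, HTB2 by -1.44 and -3.00, and UPB1 by 3.29 and 3.10.

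Section 4, between the compared sides, showed where along the meristem the levels turned. For each of the 38 named genes and probe sets with a difference of at least 1 in size and the same sign in both roots, the first section was found whose log2 intensity had passed the midpoint between that root's early and late means. Among the 19 that were higher late, this was section 4 for 5 genes, section 5 for 11 and section 6 for 3 in root 1. In root 2 it was section 3 for 1 gene, section 4 for 13 and section 5 for 5. TUB1 stood at 2.74 in section 4 of root 1 and at 14.8 in section 4 of root 2, and UPB1 at 0.839 and 4.58. Among the 19 that were lower late, 11 had passed the midpoint by section 4 in root 1 (and 1 more by section 3), against 4 in root 2 (and 4 more by section 3). In the deposited values, the turn for genes higher late thus came nearer to the tip in root 2. For genes lower late it did not come at 1 shared place. The section 4 arrays differed in spread, with an SD of 0.889 in root 1 and 1.30 in root 2. The late sections had 1.00 and 0.909 in root 1 and 0.891 and 0.835 in root 2. The part of this spread in the place of the turn was not tested. HTB1, HTB2, GPDHp and DI21 passed the midpoint in section 5 in both roots, and 3xHMG-box2, KIWI, ATLP-1 and YAO in section 4 of root 1 and section 3 of root 2. These sections were cut as fractions of each root's own zone, and the members were chosen by their early and late levels, so the counts are a description.

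Section 1 set the roots apart. Per the labels, root 1 also gave a columella section, taken from below the quiescent centre, and root 2 has no such array. Whether section 1 held the same tissue in both roots was not tested. The 19 genes lower late had in section 1 of root 1 a level that was 78.8% of the way from the early to the late mean (median over genes), and in section 1 of root 2 a level that was 2.84% of the way. AT5G14520 was at 1.62 in section 1 of root 1 and at 12.1 in that of root 2, and LHW at 1.16 and 3.72. The genes higher late did not differ in this way, with medians of 3.91% in root 1 and -3.68% in root 2. The array of section 1 of root 1 had the lowest spread of the meristem (SD 0.634). The parts of that spread and of the separate columella section in this difference were not tested.

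The first elongation section continued the late levels for some genes and not for others. XTH18 went on to 19.3 in root 1 and 23.7 in root 2, HRGP1 to 11.1 and 16.6, and COR47 to 29.7 and 71.3. TUB1 was lower there than in the late sections, at 4.85 and 7.03, and SIM stood at 2.91 and 4.68. HTB2 stayed low, at 0.830 and 0.744. The elongation arrays had no part in the comparison.

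The sorted populations, which shared no array with the sections, were read for where each transcript was highest. This was limited to the 11373 probe sets above the median level, of which 39.2% were highest in meristematic xylem and 23.7% in hair cells. Of the 2059 such probe sets with all late arrays below all early ones after quantile normalization, 71.2% were highest in meristematic xylem and 3.69% in hair cells. Of the 1413 with all late arrays above, 13.9% were highest in meristematic xylem and 43.8% in hair cells. HTB2 was at 4.96 in meristematic xylem and 0.589 in hair cells, 3xHMG-box2 at 5.35 and 0.434, and AT5G14520 at 21.7 and 1.27. TUB1 was at 1.30 in meristematic xylem and 7.74 in hair cells, XTH18 at 0.623 and 10.12, and HRGP1 at 0.926 and 14.3. Not all named genes with a difference of at least 1 in size followed this division. Of the 19 higher late, 9 were highest in hair cells and 1 in meristematic xylem. Of the 19 lower late, 13 were highest in meristematic xylem and 0 in hair cells. COR47 had 16.0 in meristematic xylem, 26.4 in hair cells and the highest level, 44.1, in phloem pole pericycle. LCR68 was at 4.15 in meristematic xylem and 0.758 in hair cells, and highest in phloem pole pericycle, at 37.1. The called probe sets 263845_at and 245325_at were at 1.63 and 0.858 in meristematic xylem and at 1.19 and 0.493 in hair cells. Probe set 263845_at was highest in xylem pole pericycle (26.5), and 245325_at in protophloem and metaphloem (28.6). With 1 array per population these shares carry no test.

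**Figure D5:**
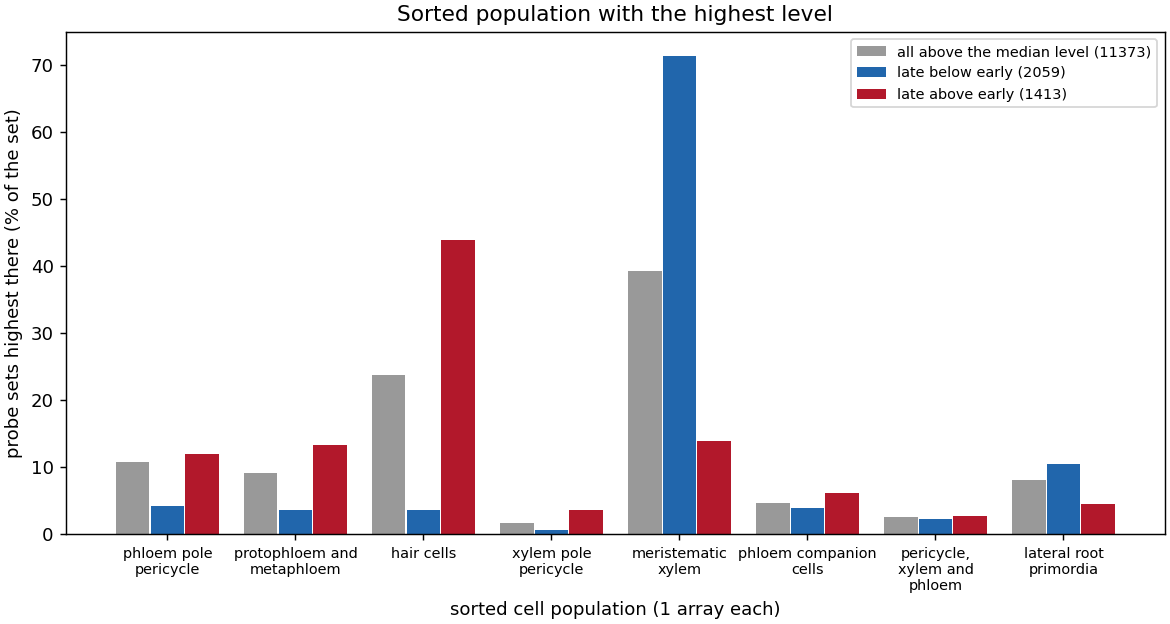
Share of probe sets (vertical axis, percent of each set) whose highest level among the 8 sorted populations was in the population on the horizontal axis, for all 11373 probe sets above the median level (grey), the 2059 with all late arrays below all early ones (blue) and the 1413 with all late arrays above (red), after quantile normalization of the sections. The blue set is highest in meristematic xylem in 71.2% and the red set in hair cells in 43.8%.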

How the data were processed

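The series was measured on Affymetrix arrays of 22746 probe sets, with RNA amplified in 2 cycles per the labels' protocols. The values are a linear intensity per probe set as deposited by the authors. Their background correction, summarisation and scaling are not stated in the labels or headers, and array medians lay near 1. The log2 of each value was analysed, unfiltered and without an offset.

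Probe sets were named through the platform's gene table (13513 list 1 gene, 503 several, 8730 not listed), and 13436 matched TAIR10.1 by gene ID, used for names and no coordinates. Names other than a locus code covered 1550 probe sets. A gene with several probe sets is represented by the brightest.

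The 12 meristematic arrays were averaged per root into sections 1, 2 with 3, 4, and 5 with 6, which gave 8 values. limma (version 3.58.1 in R 4.3.3) fitted section group and root, with root as a block, in a moderated two-sided test with 3 residual and 4.04 prior degrees of freedom, adjusted by Benjamini and Hochberg at 0.05. The pairing comes from the labels, since sections of 1 root come from 1 plant. Differences between the roots correlated between sections with a median of 0.0892 over 15 pairs (range -0.233 to 0.801). The 2 roots have array titles of different naming series, so a batch cannot be told apart from the root. With root as a block, a constant difference between the 2 plants is removed. The tests measure how far differences between section groups varied between the plants, with sections 1 and 4 included. On simulated data of this design, with 100 probe sets changed by a log2 of 2 and 100 by 4, the fit recovered 63 and 87 and called 11 unchanged ones, and the fit without section 1 recovered 39 and 83 and called 5. The simulated noise had the same spread in all section groups of a probe set. The simulation thus cannot show how the fits compare where section 1 varies more between the roots than the other sections do.

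The members and lists were chosen with earlier results of these data known. Of 32 gene lists, 28 had a measured member, and 4 genes were removed after the annotation was read because their symbol belongs to another kind of protein in the reference. Named genes are the 10 largest passing differences in each direction (where under 5 passed, the 6 with the lowest p), up to 4 passing members per list or the 2 largest differences, HTB2 and TUB1. The 4 called probe sets, other list members, and the genes printed in the closing section were named after their values were seen. Alternatives were the block, other groupings of arrays, scaling, offsets, a level filter, the prior, and leaving out each array or root. Promoter sequences were not used here.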

Additional observations from a re-analysis of the deposited data

Results flagged for a closer look

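In each named gene or probe set, the 4 early and the 4 late arrays were each examined for 1 array far from the other 3, by the gap to its neighbour over the range (Dixon's ratio). Of 130 sides, 6 had a ratio above the critical value, and chance alone flags about 1 in 20. HTB2 was higher in section 5 of root 1 than in the other late arrays (ratio 0.832), at 2.32 against 0.865 to 1.02. XTH18 was lower in the same section (ratio 0.832), at 1.83 against 10.6 to 15.1. TUB1 was higher in section 3 of root 2 than in the other early arrays (ratio 0.847), at 3.36 against 0.893 to 1.09. EXLA2, an expansin-like gene, was higher in section 5 of root 2 than in the other late arrays (ratio 0.853). GID1C, a gibberellin receptor, stood apart in section 2 of root 2 among the early arrays (ratio 0.871), as did probe set 245325_at (ratio 0.916), at 1.56 against 0.838 to 0.884.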

How the results depend on the processing

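The number of probe sets called depended strongly on how the spread was estimated. Beside 4 higher and 0 lower with the planned fit, 2 and 0 were called with no replicate block, 606 and 2029 with the early and late values alone, 704 and 1797 with the 12 meristematic arrays as 6 sections, 974 and 2922 with all 24 section arrays, 829 and 1060 with a trended prior, and 5 and 0 after scale normalization. None was called in either direction after quantile normalization, with an offset of 0.25 or 1, with a robust prior, or among probe sets above the median level, where 2435 to 4512 had an unadjusted p under 0.05. Leaving out 1 array gave 0 to 520 higher and 0 to 1863 lower. Without section 1 of either root, the numbers were 520 and 1863, without section 4 of either root 73 and 8, and without section 5 of root 1 38 and 10. The fit to the early and late values alone and the trended prior both had an infinite prior, which takes the spread of a probe set from the prior and not from its own values. The fit without section 1 had 2 residual and 9.60 prior degrees of freedom, beside 3 and 4.04 in the planned fit. It thus leaned more on the prior.

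Probe sets with all late arrays above all early ones numbered 4212 as deposited, 2155 after quantile normalization, 2239 after scale normalization, 725 among those above the median level and 4212 to 6377 with 1 array left out. Those with all late arrays below numbered 2955, and 2362 to 3749 in the other settings. Scale normalization (equal medians and median absolute deviations) turned the sign of BRL1 (-0.0266), PRXR1 (0.22), CRT1b (1.23), clpP (0.81) and AT3G58730 (0.28), the last also after quantile normalization (0.16). None of these was called in the planned fit. Among other list members printed above, JKD, cdc2cAt, TUB5, TUB6 and MT1C turned sign after both normalizations and TUB9 and ULT1 after scale normalization. The cause of the turns was not tested. No depth is known for these arrays, and dim probe sets have no detection call here.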

Other observations

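A pair of gene groups not described above was chosen after the values had been seen. Of 12 genes for subunits of the nuclear RNA polymerases, all 12 had a negative difference in both roots, 9 had all late arrays below all early ones, and 8 were called lower without section 1. Their median difference was -1.30, -0.85 after quantile and -0.76 after scale normalization, beside 0.16, 0.02 and 0.01 over all probe sets. Over all probe sets, 6356 of 22746 had a negative difference in both roots. All late arrays lay below for 13.0% and above for 18.5%, and 8.19% were called lower without section 1. NRPB6A (AT5G51940) had 4.65 and 3.97 early against 1.61 and 1.09 late in root 1, and 9.90 and 4.65 against 1.35 and 1.08 in root 2 (-2.09 ± 0.50). NRPA2, the second largest subunit of RNA polymerase I, which transcribes ribosomal RNA, differed by -1.24 ± 0.51 (-0.76 after quantile and -0.65 after scale normalization). NRPC2, its counterpart in RNA polymerase III, differed by -1.36 ± 0.41. NRPB9A stood apart at -0.06, while NRPB9B, the other gene for that subunit, differed by -1.59.

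The TBL family, to which the enzymes that acetylate wall polysaccharides belong, held 22 measured genes. All late arrays lay above all early ones for 9 and below for 1, beside 18.5% and 13.0% of all probe sets. Without section 1, 5 were called higher and 1 lower, beside 2.29% and 8.19% of all probe sets. The median difference was 0.35, and 0.28 after quantile normalization. TBL37 (AT2G34070) had 1.05 and 1.36 early against 3.95 and 10.9 late in root 1, and 1.44 and 2.69 against 12.4 and 13.8 in root 2 (2.59 ± 0.37, adjusted p = 0.143). TBL38 had 0.752 and 0.797 against 1.51 and 4.34 in root 1 and 0.631 and 0.643 against 4.43 and 9.52 in root 2 (2.54 ± 0.45). TBL36 went the other way (-1.28 ± 0.41).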
